A study of Danio rerio with 6 samples.

Results

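Immediate early response genes are transcribed within minutes of a stimulus, without new protein synthesis, and most of them encode short-lived transcription factors. Growth factors induce them through RAS-ERK signalling, in which ERK phosphorylates the ternary complex factors that sit with SRF at their promoters. Stress kinases and cytokine receptors induce several of the same genes, and the enzymatic dissociation of tissue before cell sorting is known to raise them too. The genes described here are 7 such genes of the zebrafish (Danio rerio), taken by Ensembl identifier from a table of 27726 genes. They are egr1 (ENSDARG00000037421), fosab (ENSDARG00000031683), jun (ENSDARG00000043531), junba (ENSDARG00000074378), junbb (ENSDARG00000104773), atf3 (ENSDARG00000007823) and socs3a (ENSDARG00000025428). They were picked by name as immediate early genes, with earlier results of these data known, so the counts below are a description of them. All 7 passed the filter on low values that left 20463 genes for testing.

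RNA was sequenced from cells that flow cytometry had sorted for a sox10:dsRed reporter, a red fluorescent protein under control of the regulatory sequence of the neural crest gene sox10. The larvae were 6 days post fertilization. The wild-type group (genotype WT) had 3 libraries, and the group of shoc2 mutants made with CRISPR/Cas9 (genotype Shoc2-/-, D22 in the sample titles) had 3 libraries. All 6 libraries carry the reporter. Shoc2 is a scaffold protein that, with a RAS-family GTPase and a protein phosphatase, removes an inhibitory phosphate from RAF kinases and so promotes ERK signalling. The labels do not say how many larvae entered a library or whether replicates came from separate clutches, so the p-values measure only the spread between these libraries, which may be technical.

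Library depth ran from 20088591 to 21802683 reads in genes. The shoc2 transcript (SHOC2 in the reference name table) had 1194, 959 and 1083 normalized counts in wild-type replicates 1 to 3 and 844, 798 and 673 in mutant replicates 1 to 3. The genotypes did not overlap, with a log2 fold change of -0.48 (SE 0.147, limma adjusted p = 0.636). The labels do not say which part of the gene was cut, so the transcript level is no check of the genotype. The reporter's parent gene, SOX10 in the table, was read in every library, with a range of 8573 to 25782 normalized counts in wild type and 13953 to 30211.5 in mutants.

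The 7 genes together were lower in the mutant libraries. Their summed reads made up 2.69%, 2.57% and 3.04% of all reads in wild-type replicates 1 to 3 and 1.99%, 2.03% and 1.88% in mutant replicates 1 to 3. The highest mutant library was below the lowest wild-type library. The sum mostly follows the most abundant genes. In wild type fosab, egr1 and junbb had means of 179620, 125154 and 106820 normalized counts, beside 9246 for atf3. Taken singly, jun and atf3 overlapped between the genotypes. In bulk samples, fewer cells of a responding type and less RNA per cell cannot be told apart.

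**Figure D1:**
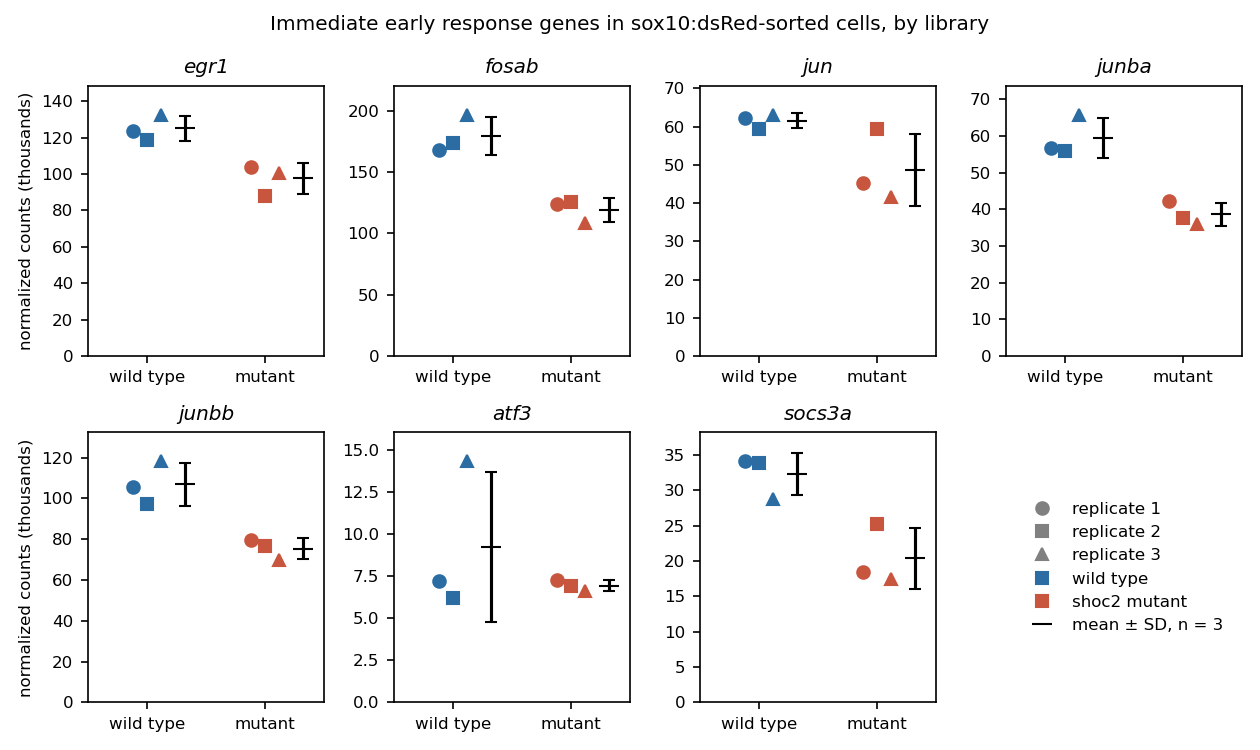
Normalized counts of the 7 genes in each of the 6 libraries, with replicates as symbols and the mean ± SD (n = 3) of each genotype in black. The 3 mutant values lie below the 3 wild-type values for egr1, fosab, junba, junbb and socs3a, while jun overlaps through mutant replicate 2 and atf3 is high in wild-type replicate 3.

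Each gene was tested with limma on log2(normalized count + 1) in a fit across all tested genes, and the log2 fold changes below are mutant minus wild type on that scale. All 7 log2 fold changes were below 0, from -0.68 to -0.31, with a median of -0.50. Over all tested genes the median was 0.0078, and 48.5% of genes were below 0. None of the 7 passed an adjusted p of 0.05 in limma, where 0.00489% of all tested genes passed in this direction. At an unadjusted p under 0.05, 6 of the 7 were lower in mutants, beside 2.91% of all tested genes, and 0 were higher, beside 2.88%. The 3 mutant values lay below the 3 wild-type values for 5 of the 7 genes, beside 5.28% of all tested genes. With edgeR's quasi-likelihood test on the recovered reads, 0 of the 7 passed after adjustment, and 6 were lower at an unadjusted p under 0.05, beside 3.29% of all tested genes. DESeq2 called 3 of the 7, all lower in mutants, beside 0.528% of all tested genes.

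These genes had many reads, and genes with many reads mostly had smaller errors than other genes. Among the 7, standard errors ran from 0.13 (junba) to 0.163 (socs3a), apart from atf3 at 0.27. Of the 328 other tested genes whose mean reached that of atf3, the lowest of the 7 at 8098 normalized counts, 44.8% had a log2 fold change below 0. Of those 328, 10.1% had all mutants below all wild types, 8.54% were lower in mutants at an unadjusted p under 0.05, and the median log2 fold change was 0.0057. Their median standard error was 0.131, beside 0.232 over all tested genes. This comparison was added after the data were seen. Only the 7 genes were left out of it. The 328 thus held immediate early and stress genes described below, such as BTG2, FOSB and hsp70l, which were lower without overlap.

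The first of the transcription factors, egr1, encodes a zinc finger protein whose gene is a standard readout of ERK activity. It had 123930, 118951 and 132582 normalized counts in wild-type replicates 1 to 3 and 104135, 88060 and 100674 in mutant replicates 1 to 3. All mutant values were below all wild-type values, and the wild-type mean of 125154 ± 6897 (SD, n = 3) stood against a mutant mean of 97623 ± 8461 (SD, n = 3). The log2 fold change was -0.36 (SE 0.135, limma adjusted p = 0.763), or 1.28-fold higher in wild type. Under quantile normalization, which gives all libraries one distribution of values, it was -0.15.

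AP-1 is a dimer of a Fos with a Jun protein, or of Jun proteins with each other. The Fos gene of the group, fosab, had 168086, 173975 and 196800 normalized counts in wild-type replicates 1 to 3 and 123709, 125822 and 108232 in mutant replicates 1 to 3. The lowest wild-type library exceeded the highest mutant library by more than the whole range of either genotype. The wild-type mean was 179620 ± 15166.5 (SD, n = 3), and the mutant mean was 119254 ± 9604 (SD, n = 3). The log2 fold change was -0.59 (SE 0.141), or 1.51-fold higher in wild type. limma gave an adjusted p of 0.405, edgeR 0.218 and DESeq2 0.0108.

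The genes junba and junbb are the zebrafish counterparts of mammalian Junb, which encodes a Jun protein of weaker activity than Jun in many settings. Normalized counts of junba were 56637, 55864 and 65715 in wild-type replicates 1 to 3 and 42165, 37626 and 36042 in mutant replicates 1 to 3. Its log2 fold change was -0.62 (SE 0.13), and limma gave an adjusted p of 0.342, edgeR 0.218 and DESeq2 0.00683. Both the smallest limma p and the smallest DESeq2 p among the 7 genes belonged to junba. For junbb the normalized counts were 105344, 97021 and 118095 in wild-type replicates 1 to 3 and 79580, 76551 and 69760 in mutant replicates 1 to 3. Its log2 fold change was -0.50 (SE 0.136), and limma gave an adjusted p of 0.52, edgeR 0.333 and DESeq2 0.0695. Neither gene overlapped between the genotypes.

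The ratio of the 2 junb genes was also compared, which removes what moves both alike. The log2 ratio of junba to junbb was -0.90, -0.80 and -0.85 in wild-type replicates 1 to 3 and -0.92, -1.02 and -0.95 in mutant replicates 1 to 3. The mutant mean was lower by a log2 difference of -0.12, without overlap. The exact two-sided permutation p was 0.1, the smallest that 3 against 3 libraries allow. The gap between the closest libraries of the 2 genotypes, wild-type replicate 1 and mutant replicate 1, was smaller than the spread within either genotype.

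The third Jun gene, jun itself, encodes the main partner of Fos. It had 62178, 59292 and 63075 normalized counts in wild-type replicates 1 to 3, the tightest wild-type values of the group relative to their mean. In mutant replicates 1 to 3 it had 45299, 59370 and 41482. Mutant replicate 2 was thus level with wild type while the other 2 mutant libraries were lower, and the genotypes overlapped. The log2 fold change was -0.35 (95% confidence interval -0.70 to -0.0033, limma adjusted p = 0.854), and DESeq2 gave an adjusted p of 0.785.

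The gene atf3 encodes a bZIP factor best known as a repressor induced by cell stress. It had 7211, 6194 and 14333 normalized counts in wild-type replicates 1 to 3 and 7284, 6953 and 6612 in mutant replicates 1 to 3. Wild-type replicate 3 stood alone, and the other 2 wild-type libraries enclosed the range of 3 mutant libraries apart from mutant replicate 1. The log2 fold change was -0.31 (95% confidence interval -0.92 to 0.30, limma adjusted p = 0.964), and without wild-type replicate 3 it was 0.06. Without wild-type replicate 2 it was -0.55.

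The last gene, socs3a, encodes a suppressor of cytokine signalling, a feedback inhibitor of the JAK-STAT pathway that STAT3 induces. It had 34079, 33831 and 28816 normalized counts in wild-type replicates 1 to 3 and 18381, 25286 and 17468 in mutant replicates 1 to 3. The genotypes did not overlap, and mutant replicate 2 came closest to wild type. The log2 fold change of -0.68 (SE 0.163) was the lowest of the 7, or 1.60-fold higher in wild type. limma gave an adjusted p of 0.406, edgeR 0.407 and DESeq2 0.0491. Another identifier with the name SOCS3 in the reference name table, ENSDARG00000026611, stood at -0.35 (SE 0.247, limma adjusted p = 0.955) and overlapped between the genotypes. The 95% confidence intervals of the 7 log2 fold changes all overlapped, so no order among the genes is given.

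**Figure D2:**
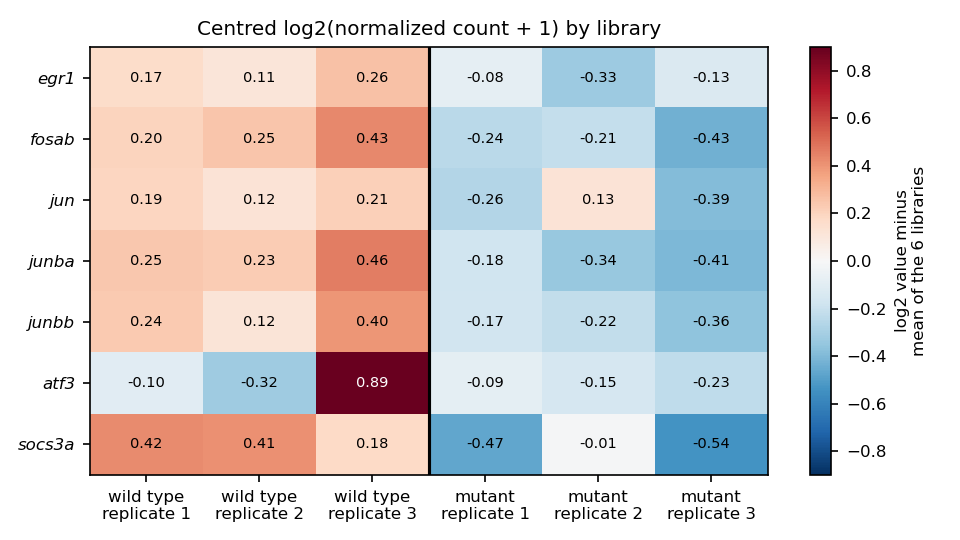
Log2(normalized count + 1) of each gene minus its mean over the 6 libraries, with wild type left of the black line. The wild-type side is above 0 except for atf3 in replicates 1 and 2, and the mutant side is below 0 except for jun in replicate 2 (0.13).

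The genes did not vary alike between libraries of one genotype. Wild-type replicate 3 was the highest of the 6 libraries for 6 of the 7 genes, and the exception was socs3a, for which it was the lowest of the wild-type libraries. Mutant replicate 3 was the lowest library for 5 of the 7 genes, the exceptions being egr1 and atf3. Among all tested genes, wild-type replicate 3 was the highest library for 15.5% and mutant replicate 3 the lowest for 18.8%. Mutant replicate 2 was the highest mutant library for jun, socs3a and fosab, yet it was the lowest of all libraries for egr1. By the root-mean-square difference of centred log2 values over the 6 libraries, the closest genes were fosab and junba (0.064), fosab and junbb (0.072), and junba and junbb (0.073). The most distant were atf3 and socs3a (0.513).

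Without wild-type replicate 3, which was high for most of these genes, 6 of the 7 log2 fold changes were below 0. In that fit 5 of the 7 were lower in mutants at an unadjusted limma p under 0.05, beside 2.17% of all tested genes. The number lower without overlap was 5, beside 9.72%, and leaving out a library could not reduce it. The libraries also fell into 3 deeper ones (wild-type replicate 1, mutant replicates 1 and 3) and 3 shallower ones. The deeper ones had 21575563 to 21802683 reads and the shallower ones 20088591 to 20152291, so the classes differed little in depth. They regroup the same 6 libraries and are no repeat of the result. The mutant minus wild-type difference was below 0 for 7 of the 7 genes within the deeper libraries and for 7 within the shallower ones, with medians of -0.52 and -0.48. For the 5 genes without overlap between the genotypes no other sign was possible. The share of all tested genes below 0 in each class was not computed. For jun the differences were -0.52 and -0.04, for socs3a -0.93 and -0.30, for atf3 -0.06 and -0.44, and for fosab -0.54 and -0.56. Each class held 1 library of one genotype, so these differences were not tested.

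Other immediate early genes of the table showed the same direction. A list of 38 further identifiers, named here as in the reference name table, also held SRF and ELK1, which encode factors acting at such promoters. Of the 38, 34 had a log2 fold change below 0 (ELK1 at -0.01), and the median was -0.50. None passed the adjusted threshold in limma, 16 had an unadjusted p under 0.05 and were lower in mutants (2.91% of all tested genes), and 0 were higher at that p. All 3 mutants were below all 3 wild types in 15 of the 38 (5.28% of all tested genes). DESeq2 called 7, all lower in mutants (0.528% of all tested genes). Wild-type replicate 3 was the highest library for 24 of the 38, and without it 31 of the 38 were below 0, with a median of -0.27, and 14 had an unadjusted p under 0.05 and were lower (2.17% of all tested genes). Within the deeper libraries 26 of the 38 differences were below 0, and within the shallower ones 34. For the 15 without overlap no other sign was possible.

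The 4 relatives of egr1 on the list lay on the same side of 0 as egr1 itself. EGR3, an activity-induced factor of the same zinc finger family, had 1844, 1961 and 2750 normalized counts in wild-type replicates 1 to 3 and 890, 924 and 694 in mutant replicates 1 to 3. This gene had the lowest log2 fold change of the 38, -1.37 (SE 0.184), with an adjusted p of 0.119 in limma and 2.33e-07 in DESeq2. The highest mutant value, 924, lay well under the lowest wild-type value, 1844. The log2 fold change of egr2a, a counterpart of mammalian Egr2, was -1.03 (SE 0.28, limma adjusted p = 0.52, DESeq2 adjusted p = 0.032), and that of EGR2 was -0.90 (SE 0.292) and that of egr4 -0.57 (SE 0.178). The difference between egr1 and its relatives was not tested.

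Among the other AP-1 genes, FOSB had 21784, 20990.4 and 39703 normalized counts in wild-type replicates 1 to 3 and 13979, 14486 and 10290.5 in mutant replicates 1 to 3. Its log2 fold change was -1.04 (SE 0.248, limma adjusted p = 0.405, DESeq2 adjusted p = 0.0116), and the genotypes did not overlap although wild-type replicate 3 stood far above the rest. JUND, a Jun gene that is less inducible than the others, had a log2 fold change of -0.58 (SE 0.199) without overlap. FOSL1 (-0.60), FOSL2 (-0.13) and fosaa (-0.18), the paralogue of fosab, overlapped between the genotypes.

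Outside these families, NR4A1, an orphan nuclear receptor induced by growth factors, had 10364, 12339 and 13044 normalized counts in wild-type replicates 1 to 3 and 6908, 6875 and 5579 in mutant replicates 1 to 3. Its log2 fold change was -0.88 (SE 0.138, limma adjusted p = 0.179, DESeq2 adjusted p = 5.35e-05). BTG2, which encodes an antiproliferative protein, stood at -0.74 (SE 0.13, limma adjusted p = 0.227, DESeq2 adjusted p = 0.000352). CEBPD, a bZIP factor of inflammatory responses, stood at -0.77 (SE 0.128, limma adjusted p = 0.209, DESeq2 adjusted p = 0.000321). DUSP2, a nuclear phosphatase of MAP kinases, stood at -0.95 (SE 0.212, limma adjusted p = 0.367, DESeq2 adjusted p = 0.0111). These 4 were the listed genes outside those families that DESeq2 called. None of them overlapped between the genotypes (5.28% of all tested genes were lower without overlap). Their relatives on the list overlapped: NR4A3 (-0.54), CEBPB (-0.65), DUSP1 (-0.27) and DUSP5 (-0.37). Not all genes of the list were lower: IER5L (0.27), klf2b (0.13), klf6b (0.02) and one of the MYC identifiers, ENSDARG00000045695 (0.13), were above 0 and overlapped.

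**Figure D3:**
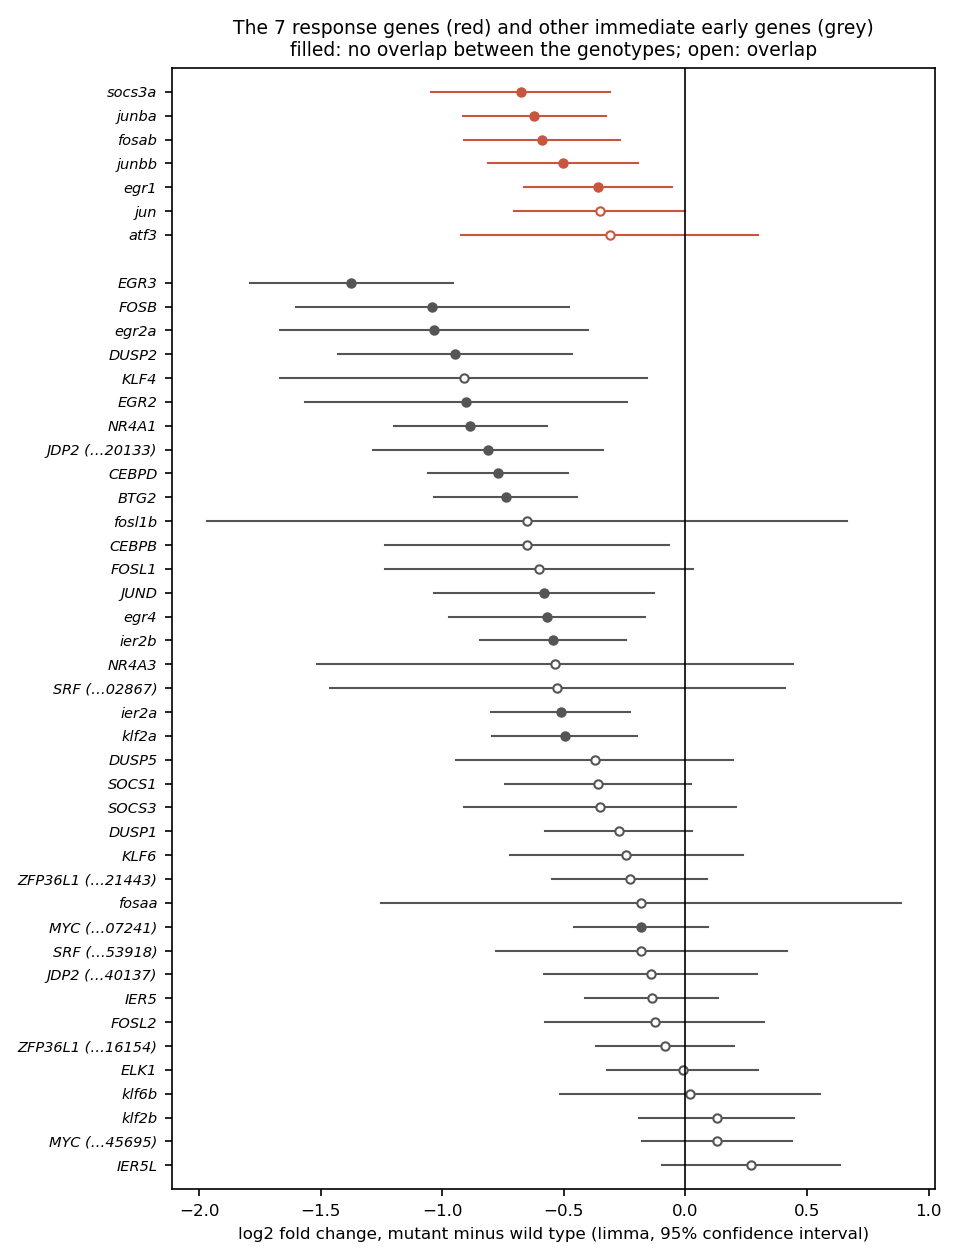
Limma log2 fold changes (mutant minus wild type) with 95% confidence intervals for the 7 response genes in red and the list of 38 further identifiers, SRF and ELK1 included, in grey. Names that occur more than once carry the end of the identifier. Filled points mark genes without overlap between the genotypes. All 7 red points and 34 of the 38 grey points lie left of 0.

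Genes that ERK signalling induces, among them feedback inhibitors of it, ETV genes and CCND1, gave a mixed result. Of 12 such identifiers, 9 were below 0, with a median of -0.16 that was -0.08 without wild-type replicate 1 and -0.24 without wild-type replicate 3. The Sprouty genes SPRY2 and SPRY4, inhibitors of receptor tyrosine kinase signalling, were the 2 that DESeq2 called (0.528% of all tested genes). They were also the 2 with an unadjusted limma p under 0.05 (2.91%). SPRY2 stood at -0.56 (SE 0.114, limma adjusted p = 0.318, DESeq2 adjusted p = 0.0155). SPRY4 stood at -0.53 (SE 0.114, limma adjusted p = 0.367, DESeq2 adjusted p = 0.0269). All mutants were below all wild types for 3 of the 12 (5.28% of all tested genes), namely SPRY2, SPRY4 and SPRED1 (-0.25, SE 0.122). DUSP6, the ERK phosphatase whose transcript is a common readout of ERK activity, had 6342, 5364 and 4568 normalized counts in wild-type replicates 1 to 3 and 4756, 5631 and 5872 in mutant replicates 1 to 3. It overlapped fully, with a log2 fold change of 0.01 (95% confidence interval -0.33 to 0.34). Of 17 identifiers for Shoc2, RAS, RAF, MEK and ERK proteins and the phosphatase, 12 were below 0 (48.5% of all tested genes). Only SHOC2 had an unadjusted limma p under 0.05 (2.91%). In limma without the variance trend 2 of the 17 were lower at that p (3.01%).

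Heat shock and other dissociation stress genes, which the handling of tissue is known to induce, were also compared. Of 13 identifiers, 10 were below 0, with a median of -0.28. At an unadjusted limma p under 0.05, 3 were lower in mutants (2.91% of all tested genes), and 5 were lower without overlap (5.28%). These counts were 6 and 8 without mutant replicate 1 (3.38% and 11.8% of all tested genes), and edgeR gave 5 at its unadjusted p (3.29%). Without mutant replicate 2 the median was -0.19. The heat-inducible chaperone gene hsp70l had 161834, 201363 and 181797 normalized counts in wild-type replicates 1 to 3 and 118612, 127510 and 96655 in mutant replicates 1 to 3. Its log2 fold change was -0.67 (SE 0.161, limma adjusted p = 0.405, DESeq2 adjusted p = 0.0108), and HSPB1, a small heat shock protein gene, stood at -0.81 (SE 0.239). HSPA5, the chaperone of the endoplasmic reticulum, stood at 0.16 and hsp70.3 at -0.20, and both overlapped. Summed, these genes took 1.97% to 2.15% of reads in wild type and 1.47% to 1.70% in mutants. In normalized counts the sums were 409673 to 449365 in wild type and 298495 to 357691 in mutants. Within them hsp70l alone had means of 181665 in wild type and 114259 in mutants, so the sums largely followed this gene. The part of handling stress in the values of the 7 genes was not tested.

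Markers of other cell types varied between libraries as well. The 6 epithelial markers summed to 0.333% to 0.952% of reads in wild type and 0.296% to 0.461% in mutants, and 5 of the 6 had a log2 fold change below 0. At an unadjusted limma p under 0.05, 2 of the 6 were lower in mutants (2.91% of all tested genes). With the replicate number added to the fit 4 were lower (2.15%), and without wild-type replicate 2 it was 0 (2.69%). The 7 skeletal muscle markers summed to 0.0136% to 0.0858% in wild type and 0.0261% to 0.178% in mutants, and all 7 were above 0. None of the 7 was higher at an unadjusted limma p under 0.05 (2.88% of all tested genes). With the replicate number added to the fit 6 were higher at that p (467 of 20463 genes), and without mutant replicate 3 all 7 were (634 of 20463). The 6 leukocyte markers summed to 0.0112% to 0.0253% in wild type and 0.00496% to 0.0119% in mutants. Of the 6, the 2 antigen presentation genes cd74a (-4.12) and cd74b (-3.01) were lower without overlap (5.28% of all tested genes). The same 2 were lower at an unadjusted limma p under 0.05 (2.91%), and DESeq2 called both (0.528%). Their limma adjusted p was 0.124 for cd74a and 0.101 for cd74b. The other 4 leukocyte markers overlapped, with log2 fold changes from -0.43 to -0.0026. All 6 were below 0 in limma and 5 of the 6 in edgeR and DESeq2. Their median was -0.41, and it was -0.71 without mutant replicate 2. It was -0.12 without wild-type replicate 3 and -0.10 without mutant replicate 1, with 4 of the 6 below 0 in each of these fits. The 8 neural crest lineage markers summed to 0.119% to 0.311% and 0.134% to 0.26%, with 4 below 0 and 4 above. Without wild-type replicate 1, 7 were above 0, with a median of 0.095. Without wild-type replicate 3, 3 were above 0, with a median of -0.23. No marker was at 0 in any library. The ranges of these 4 sums overlapped between the genotypes. The leukocyte sum overlapped only through wild-type replicate 2 (0.0112%) and mutant replicate 2 (0.0119%). Much of its difference came from cd74a, with mean normalized counts of 1084 in wild type and 68.5 in mutants, and cd74b (465 and 52.6). The other 4 markers differed less: LCP1 (858 and 646), CORO1A (580 and 448), ptprc (381 and 332) and SPI1 (145 and 158). The epithelial sum overlapped only through wild-type replicate 1 (0.333%) and mutant replicate 2 (0.461%). Wild-type replicate 3, in which atf3 and FOSB were highest, also had the highest leukocyte sum, and wild-type replicate 2 had the highest epithelial sum. The part of cell composition in the values of the 7 genes was not tested.

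**Figure D4:**
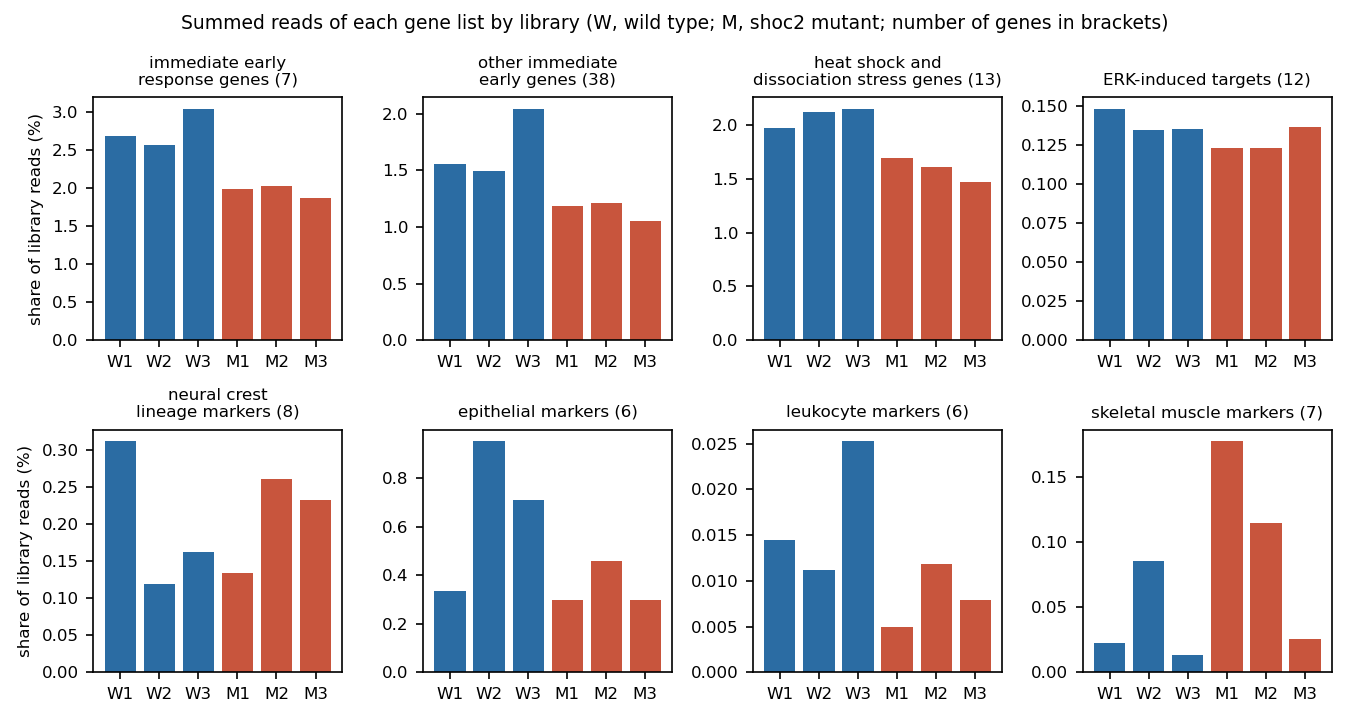
Share of library reads (%) summed over each gene list in the 6 libraries, with wild type in blue and mutants in red and a separate axis for each list. The response genes, the other immediate early genes and the stress genes are lower in all 3 mutant libraries than in any wild-type library. The leukocyte sum is highest in wild-type replicate 3 and the epithelial sum in wild-type replicate 2.

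The genes whose pattern over the 6 libraries was most like that of the group were found by the root-mean-square difference between centred log2 values and the mean of the 7 genes. Among 16691 other genes that averaged 50 normalized counts or more, the closest was ier2a (0.032), itself an immediate early gene, with 19477, 17964 and 21683 normalized counts in wild-type replicates 1 to 3 and 14493, 14521 and 12414 in mutant replicates 1 to 3. The second was PHLPP1 (0.066), named after its values were seen, which encodes a protein phosphatase. Next came SMOC2 (0.0677), GABRR1 (0.0762) and tmem116 (0.0767), also named after their values were seen. Neither PHLPP1 nor any of these was on the list of other immediate early genes. Of 448 identifiers without a symbol, ENSDARG00000097234 (0.0802) and ENSDARG00000115651 (0.136) were the closest. Within the group, junbb (0.0356) lay closest to the mean, and atf3 (0.305) lay farthest from it. These genes were selected for their likeness, so no test of them is given.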

How the data were processed

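The authors deposited one table of normalized counts, a signal per gene and library. The submitters' processing notes name FastQC 0.11.7, STAR 2.6, Cuffnorm and GRCz11, and the table's own name says HTSeq; strand and counting options are not given in the sources used here. In each column 100% of values were whole multiples of 1 step within 0.001 reads, so reads were recovered as value divided by step (size factors 0.947 to 1.07). A reference name table paired 25324 of 27726 identifiers with symbols. List genes were matched by symbol, letter case aside, with the paralogue letter dropped where needed. Whether paralogues such as junba and junbb share reads was not checked.

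Genes with at least 10 normalized counts in at least 3 libraries were tested with limma 3.58.1 (variance trend, R 4.3.3) on log2(normalized count + 1), adjusted by Benjamini-Hochberg over 20463 genes. edgeR 4.0.16 and DESeq2 1.42.0 were alternatives on the recovered reads. limma, edgeR and DESeq2 were also run on simulated data, whose planted changes were larger than those of the 7 genes. The permutation test was not run on simulated data. The 7 genes and all lists were chosen with earlier results of these data known. Genes named are the 7, genes of the lists, and those nearest in pattern by root-mean-square difference. No 2 libraries agreed within sampling noise (chi-square per degree of freedom at least 27.2).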

Additional observations from a re-analysis of the deposited data

How the results depend on the processing

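The count of all genes past the adjusted threshold was 1 in limma, 3 with no filter, 155 in DESeq2 and 2 with robust shrinkage (added after the data were seen). It was 0 without the variance trend (1227 unadjusted), 0 in edgeR (1232 unadjusted) and 0 under the replicate block (906 unadjusted). Leaving out 1 library gave from 0 to 4. The cause was not tested. Of the 7, 0 passed under every setting run except DESeq2, which called 3 (fosab, junba, socs3a). Over all tested genes, libraries with equal replicate numbers did not deviate alike from their genotype means (mean correlation of deviations -0.108). In this comparison 0 libraries correlated best with their own number. With 3 libraries per genotype this cannot exclude a shared clutch or sort, and the labels do not say. With the replicate block 4 of the 7 had an unadjusted p under 0.05 (2.15% of all tested genes were lower at that p), beside 6 without it. The count was also 4 with no filter (2.98%), under quantile normalization (3.15%), without wild-type replicate 1 (3.7%) and without mutant replicate 3 (2.38%). Under quantile normalization the median log2 fold change of the 7 was -0.35, beside -0.50 in the main fit. Under 19 alternatives each, the log2 fold changes of 6 genes stayed below 0, and that of atf3 was above 0 once. With 1 library left out, atf3 ran from -0.55 to 0.055. Genes without overlap numbered 2163; leave-one-out counts ran from 3692 to 4737. Of the 7 genes, 5 did not overlap, quantile normalization gave 4, and leaving out each library in turn gave 5 to 6. Leaving out a library cannot make separated genotypes overlap, so neither leave-one-out count could fall. Depth did not limit these genes, which had at least 5868 reads in each library.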
